A study of Mus musculus with 12 samples.

Results

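Adar and Adarb1 are the 2 adenosine deaminases acting on RNA that are expressed widely in mouse tissues, and they were taken by name from the 38215 genes of the deposited count table. The pair was selected on a measured value, the shift with LPS in the usage of an Adar exon bin. Values of the pair for LPS against no LPS, under either siRNA, are therefore descriptions with no test. Between siRNAs tests are given, except for the Adar level with LPS, the usage of the shifted bin and the measures that follow from that usage. At the exon level, Adar had 24 bins and Adarb1 had 34 of the 354841 bins counted. Adar (ENSMUSG00000027951) lies on the forward strand at chr3:89715022-89753446 and Adarb1 (ENSMUSG00000020262) on the reverse strand at chr10:77290726-77418270 (mm10). An exon bin is a stretch of annotated exon that the counting script cut at every exon border.

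RAW264.7 cells, an established mouse macrophage line, were transfected for 24 hours with control siRNA or with siRNA against Sf3a1, which encodes a subunit of the U2 snRNP, the spliceosome part that binds the branch point. They were then left without LPS or given 20 ng/ml LPS for 4 hours, so that each of the 2 siRNAs had 3 libraries with LPS and 3 without, in 4 groups. LPS is a bacterial cell wall component sensed by TLR4. Gene counts summed to 12746019 to 41091887 per library, and exon bins were counted in 11 libraries (the third replicate given control siRNA and LPS is not analysed here by exon). By the study's methods the siRNA and LPS treatments were each done 3 times, in 1 cell line, so p-values measure the spread between such treatments of that line.

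ADAR enzymes convert adenosine to inosine in double-stranded RNA, and inosine is read as guanosine. Adar makes a long, mostly cytoplasmic protein, p150, from a transcript that starts at an interferon-inducible promoter, and a shorter, mostly nuclear protein, p110, from transcripts that start upstream and carry no start codon in their first exon. Editing by p150 is known to keep the cell's own double-stranded RNA from activating the sensor MDA5, the product of Ifih1. Adarb1 encodes ADAR2, which is best known for recoding sites in neuronal transcripts.

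Both Adar promoters are shown because the text below turns on which of them the first-exon reads come from. The RefSeq windows (GRCm38.p6, 300 bases around each start, forward strand) lie at chr3:89714772-89715071 for the upstream start and at chr3:89730468-89730767 for the interferon-inducible start. Capitals mark every match to GAAANNGAA on either strand, the core of the element that interferon-activated factors bind.
Adar upstream start: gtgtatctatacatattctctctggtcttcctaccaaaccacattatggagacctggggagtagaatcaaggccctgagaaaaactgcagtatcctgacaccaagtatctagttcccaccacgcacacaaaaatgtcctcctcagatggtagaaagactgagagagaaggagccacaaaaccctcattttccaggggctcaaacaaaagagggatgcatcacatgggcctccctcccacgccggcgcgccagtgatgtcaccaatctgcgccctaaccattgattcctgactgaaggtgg
Adar interferon-inducible start: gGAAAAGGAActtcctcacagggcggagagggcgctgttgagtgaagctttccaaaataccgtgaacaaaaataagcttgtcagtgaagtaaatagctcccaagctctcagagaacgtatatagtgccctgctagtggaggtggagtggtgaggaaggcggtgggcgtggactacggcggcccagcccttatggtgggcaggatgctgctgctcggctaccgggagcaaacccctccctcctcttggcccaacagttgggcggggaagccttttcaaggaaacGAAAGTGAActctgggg
The inducible window held 2 matches, and neither was followed by the further A of the full element, which was found in no Adar window (3.43% of all windows hold it). GAAAAGGAA lay 249 bases before the RefSeq start, and GAAAGTGAA lay 33 bases after it, at chr3:89730751-89730759. GAAANNGAA was absent from the upstream window and from another Adar window, around a RefSeq start at chr3:89715238, and it stood in 8.55% of 32817 promoter windows of the same length. The kappaB motif had no match in the Adar windows (8.46% of all windows). These are letter matches and not binding measurements.

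The targeted gene was low where the labels place the knockdown. In CPM (the count scaled to library size with TMM factors, a normalization for composition), Sf3a1 without LPS averaged 191 ± 22.2 (SD, n = 3) under control siRNA and 28.9 ± 2.78 under SF3a1 siRNA. With LPS it averaged 167 ± 23.9 and 34.0 ± 9.72 CPM. The log2 fold change was -2.73 (SE 0.20) without LPS and -2.30 (SE 0.20) with LPS (edgeR adjusted p = 1.14e-05 and 1.47e-05). The cell type label was checked on markers: 10 of 10 macrophage markers were detected, with a summed level of 9902 to 16520 CPM per library and Lyz2 most abundant. The 5 markers each of B cells, T cells, neutrophils, fibroblasts and epithelial cells summed to at most 0.763, 0.193, 1.39, 0.342 and 0.242 CPM in any library. The 5 neuronal markers summed to 1.15 to 4.45 CPM, led by Tubb3.

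Adar stood higher with LPS under either siRNA, and its level with LPS was lower with SF3a1 siRNA than with control siRNA. Without LPS, the libraries with control siRNA gave 141, 165 and 134 CPM in replicates 1 to 3, and those with SF3a1 siRNA gave 155, 156 and 149 CPM. With LPS, control siRNA gave 681, 808 and 705 CPM, and SF3a1 siRNA gave 539, 387 and 549 CPM. All 6 libraries with LPS stood above all 6 without, and the 3 libraries with SF3a1 siRNA and LPS stood below the 3 with control siRNA and LPS. Without LPS the means were 147 ± 16.1 CPM (control siRNA) and 153 ± 4.22 CPM (SF3a1 siRNA), which overlapped. Next in order came 492 ± 90.4 CPM (SF3a1 siRNA, LPS) and 731 ± 67.4 CPM (control siRNA, LPS), each apart from its neighbours. In bulk RNA, fewer cells of a type and less RNA per cell cannot be told apart. Over all tested genes, the share whose groups did not overlap was 40.2% for LPS with control siRNA, 24.8% for LPS with SF3a1 siRNA, 45.6% between siRNAs when no LPS was given and 39.1% when it was.

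With SF3a1 siRNA, Adar was higher with LPS by 1.68 on the log2 scale, 3.21-fold (SE 0.16 log2), a description with no test. In the same comparison 10.7% of 14983 tested genes were called at a false discovery rate of 0.1, and 6.6% were called higher. With control siRNA the difference was 2.32 (SE 0.16), 4.98-fold, and 32.1% of genes were called, 13.8% higher and 18.3% lower. The difference between the LPS responses under the 2 siRNAs was not tested, because it is made of the LPS comparisons that led to Adar being listed. With LPS, Adar was lower with SF3a1 siRNA by 0.57 (SE 0.15) on the log2 scale, at 0.673 of the control level. In that comparison 38.8% of genes were called, and 20.4% were called lower. No test is given for Adar here, because its level in these libraries is part of the usage shift that led to its choice. Without LPS the log2 difference in Adar between siRNAs was 0.06, with a 95% interval of -0.27 to 0.40 (edgeR adjusted p = 0.818). Libraries of these groups overlapped.

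Adarb1 was expressed at a far lower level and did not share this pattern. Per kilobase of annotated exon, Adar was at 18.1 ± 1.98 and Adarb1 at 2.10 ± 0.388 CPM per kb with control siRNA without LPS, and at 90.1 ± 8.30 and 1.11 ± 0.133 CPM per kb with LPS. Replicates 1 to 3 gave 27.5, 24.7 and 19.0 CPM of Adarb1 with control siRNA without LPS, and 11.97, 14.15 and 11.28 CPM with LPS, so that the groups did not overlap. With SF3a1 siRNA they gave 21.7, 31.3 and 27.2 CPM without LPS, and 14.99, 32.4 and 47.7 CPM with LPS. The last group spanned the widest range of the 4, and its lowest library stood just above the highest control library with LPS.

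**Figure D1:**
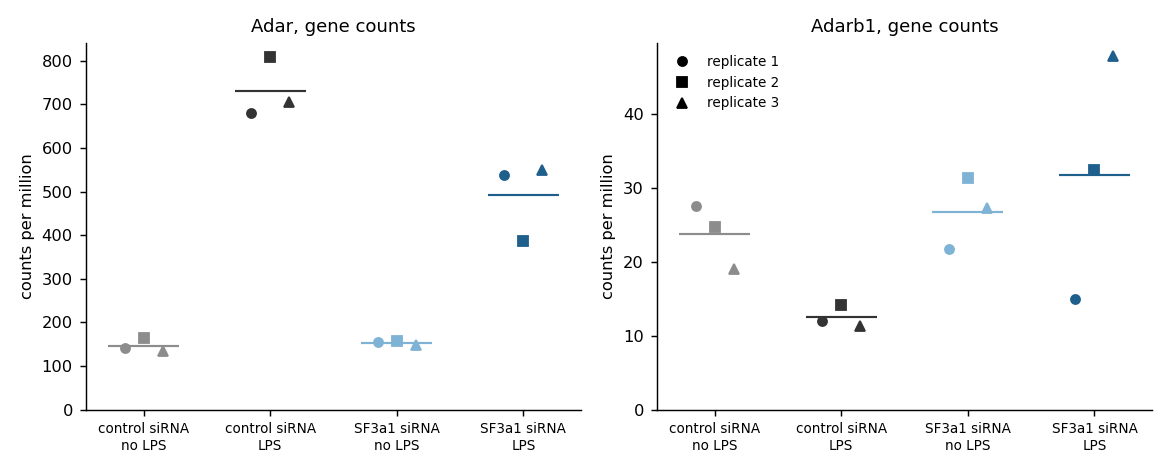
Gene-level CPM of Adar (left) and Adarb1 (right) in each of the 12 libraries, by siRNA and LPS; symbols mark replicates and horizontal lines group means. The 6 libraries with LPS lie above the others for Adar, from 387 to 808 CPM, whereas for Adarb1 the libraries with SF3a1 siRNA and LPS spread from 14.99 to 47.7 CPM.

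Adarb1 was 0.93 lower (SE 0.33, log2) with LPS under control siRNA. Under SF3a1 siRNA its log2 difference with LPS was 0.24, and the groups overlapped. Both values are descriptions with no test. Without LPS, SF3a1 siRNA gave a log2 difference of 0.17 (95% interval -0.53 to 0.87, edgeR adjusted p = 0.754), where 33.8% of genes were called, 13.7% higher and 20.1% lower. With LPS, Adarb1 was higher with SF3a1 siRNA than with control siRNA by 1.35 (SE 0.33), 2.54-fold (adjusted p = 0.00815), where 18.4% of genes were called higher. The size of that difference rested in part on 1 library, and without replicate 3 of SF3a1 siRNA with LPS it was 0.93 (adjusted p = 0.0433).

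Within Adar, the reads on the 2 first exons separated with LPS. Bin 1 (chr3:89715022-89715150, 129 bases) is the first exon of Adar-202, whose start codon lies at chr3:89735558 in bin 5 and which encodes 930 amino acids, the p110 form. Bin 3 (chr3:89730748-89730838, 91 bases) is the first exon of Adar-201 and Adar-203, whose start codon lies inside it at chr3:89730811 and which encode 1152 and 1178 amino acids, the p150 form. Bin 3 also begins Adar-204 and Adar-205, annotated with a later start codon. Thus the first bin in the gene is the upstream start, and the third marks the interferon-inducible one. Bin 2 (chr3:89715332-89715538), the first exon of the non-coding Adar-206, held 6 counts over the 11 libraries and did not pass the filter on low counts. Transcripts from the RefSeq start at chr3:89715238, which lies between bins 1 and 2, begin in no bin.

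The bin coordinates were inferred. GENCODE vM21 gives 26 Adar bins, and removing 1 transcript gives 24 with the same outer ends in 3 ways. Without the retained-intron transcript Adar-209, the log2 counts per base of the bins shared by coding transcripts had an SD of 0.738, and without Adar-208 or Adar-207 it was 1.62 or 2.13. The map without Adar-209 was used, in which bin 5, the bin with the most counts, is 1120 bases long. In either other map it would be 91 bases long, so the assignment of starts to bins rests on this choice.

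Bin 1 did not follow the gene. In the libraries with SF3a1 siRNA it was at 1.93, 1.67 and 2.31 CPM without LPS and at 1.30, 2.42 and 1.59 CPM with LPS in replicates 1 to 3, which overlap (ratio of means 0.898). Bin 3 was at 0.912, 1.003 and 1.27 CPM without LPS and at 4.75, 3.45 and 5.198 CPM with LPS, with every library with LPS above every library without (ratio 4.21). All bins other than 1 and 2 together went from 190 ± 6.45 to 620 ± 121 CPM (ratio 3.27). With control siRNA, bin 1 was at 1.63, 1.83 and 1.15 CPM without LPS and at 1.08 and 1.11 CPM with LPS, so that both libraries with LPS stood below the others. Bin 3 was at 0.504, 1.61 and 0.639 CPM without LPS and at 4.82 and 6.28 CPM with LPS.

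The share of bins 1 to 3 that fell in bin 3 shows the same shift in 1 number. With control siRNA without LPS it was 23.7% (22 of 93 counts, 95% Wilson interval 16.2 to 33.2%), 46.8% (36 of 77, 36.0 to 57.8%) and 35.7% (15 of 42, 23.0 to 50.8%). With control siRNA and LPS it was 81.7% (183 of 224, 76.1 to 86.2%) and 83.2% (79 of 95, 74.4 to 89.4%). With SF3a1 siRNA without LPS it was 30.9% (25 of 81, 21.9 to 41.6%), 37.5% (18 of 48, 25.2 to 51.6%) and 34.7% (17 of 49, 22.9 to 48.7%). With SF3a1 siRNA and LPS it was 78.5% (157 of 200, 72.3 to 83.6%), 58.8% (57 of 97, 48.8 to 68.0%) and 76.6% (108 of 141, 69.0 to 82.8%). All 5 libraries with LPS stood above all 6 without, and replicate 2 of SF3a1 siRNA with LPS was the lowest of the 5. The intervals cover counting error only.

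**Figure D2:**
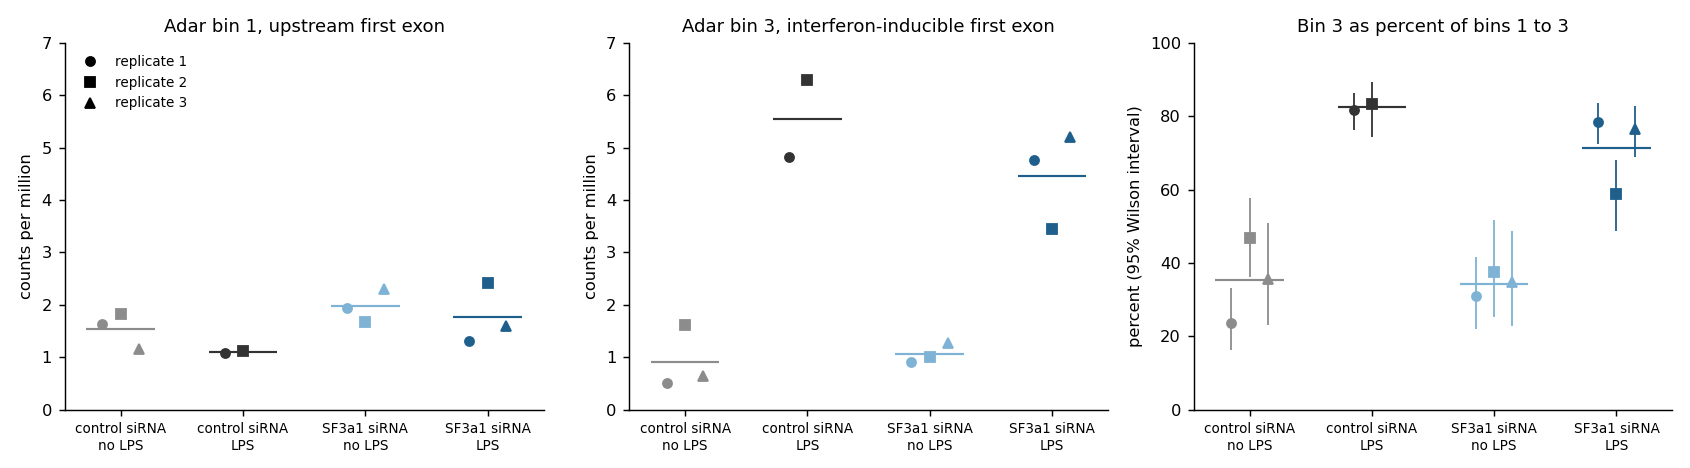
Adar first-exon reads by library: CPM in bin 1 (left) and bin 3 (middle), and bin 3 as a percent of the counts in bins 1 to 3 with 95% Wilson intervals (right); symbols mark replicates and horizontal lines group means. Bin 1 stays between 1.08 and 2.42 CPM in all 11 libraries, whereas the share of bin 3 goes from 23.7 to 46.8% without LPS to 58.8 to 83.2% with LPS.

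Means of this share were 34.4 ± 3.33% (SD, n = 3) without LPS and 71.3 ± 10.9% (n = 3) with LPS under SF3a1 siRNA, a difference of 36.9 percentage points. Between SF3a1 and control siRNA without LPS the difference was -1.02 percentage points (n = 3 and 3), and the groups overlapped. With LPS the means were 71.3% with SF3a1 siRNA and 82.4% with control siRNA, and the groups did not overlap. No test is given for any of these differences, since the share includes the shifted bin. Measured against the whole gene, as the main measure was defined, the shift was smaller. Bin 3 held 0.555 ± 0.115% of Adar bin counts without LPS and 0.717 ± 0.0335% with LPS under SF3a1 siRNA (ratio 1.29, n = 3 and 3). Bin 1 held 1.03 ± 0.195% and 0.306 ± 0.170%, respectively (ratio 0.297). Under control siRNA, bin 3 held 0.488 ± 0.276% without LPS (n = 3) and 0.593 ± 0.0574% with LPS (n = 2), and these groups overlapped.

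In the fit across all bins (edgeR diffSpliceDGE), usage of bin 1 was lower with LPS by 2.84 on the log2 scale under control siRNA and by 1.83 under SF3a1 siRNA. These values are of the kind that led to the choice of the gene, so they carry no test (0.0801% and 0.0254% of all bins were called in these comparisons). Under SF3a1 siRNA the difference was -1.88 under a replicate block, -1.99 by limma's diffSplice, -1.89 by the DEXSeq model and -2.29 without replicate 2 of SF3a1 siRNA with LPS. With LPS, usage of bin 1 was 1.30 higher with SF3a1 than with control siRNA, given with no test for the same reason. Without LPS it was 0.28 higher, also given with no test, since these libraries, too, are part of the LPS comparisons.

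With LPS, the other Adar bins differed less than bin 1. With LPS under SF3a1 siRNA, the 22 bins other than bin 1 lay between -0.32 and 0.40 on the log2 scale. With control siRNA they lay between -0.31 and 0.28. Bin 3 itself was at 0.40 under SF3a1 siRNA. Between siRNAs without LPS, the 22 bins other than bin 1 lay between -0.65 and 0.37 (smallest diffSpliceDGE adjusted p = 1.0, where 0.626% of all bins were called). Bin 24 (chr3:89751407-89753446, 2040 bases) is the 3' end of Adar-202 and Adar-203. Under SF3a1 siRNA it held 17.0% of the gene's counts without LPS and 13.7% with LPS (log2 difference in usage -0.32). Bin 19 went the other way, from 3.72 to 4.79% (log2 difference 0.38). Bins 6 and 14, which are annotated only in retained-intron transcripts, held 0.0903 to 0.272% of the gene's counts in each group.

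**Figure D3:**
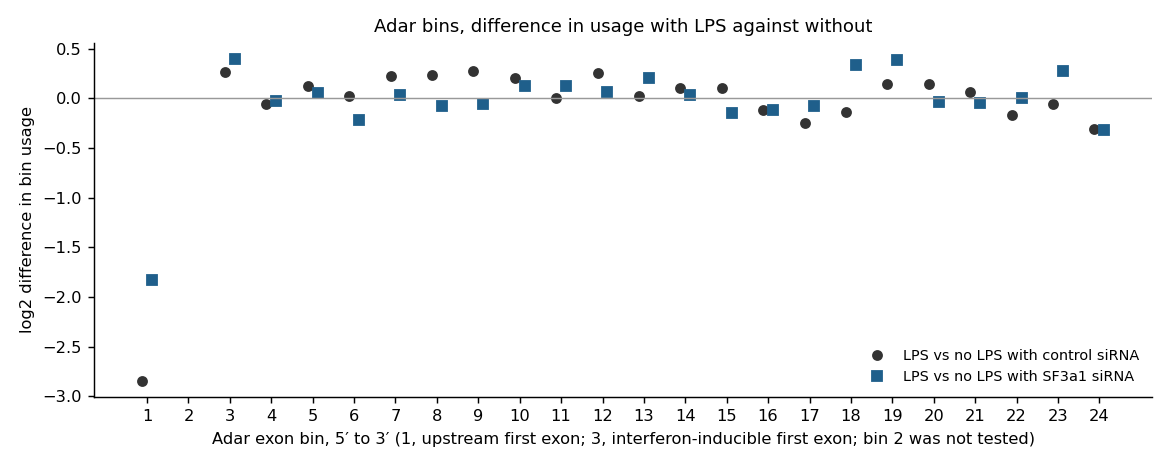
Difference in the usage of each tested Adar exon bin (log2, diffSpliceDGE) with LPS against without, for control siRNA (circles) and SF3a1 siRNA (squares); bins run from 5′ to 3′. Bin 1, the upstream first exon, lies at -2.84 and -1.83, and the other 22 bins lie between -0.32 and 0.40.

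In Adarb1 the bin that was called lay inside 1 intron, and it was called between the siRNAs. Adarb1 lies on the reverse strand, so its bin 1 is at the 3' end. Bins 14 to 21 fall within chr10:77322584-77325865, the 3282-base intron between bin 22, which holds the annotated start codon at chr10:77325893, and bin 13, a 935-base coding exon. They cover 3122 of its bases. Bin 15 (chr10:77322791-77325337, 2547 bases) belongs only to Adarb1-209, a transcript annotated as a retained intron.

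Usage of bin 15 rose with SF3a1 siRNA by 1.92 on the log2 scale without LPS (edgeR diffSpliceDGE adjusted p = 0.0507) and by 3.48 with LPS (adjusted p = 0.00875). Of 14 Adarb1 bins tested, 1 was called in each of these comparisons, against 0.626% and 0.492% of all bins (0.497% and 0.381% called higher). Replicates 1 to 3 had 43, 16 and 13 counts in bin 15 with control siRNA without LPS, which is 3.29, 2.66 and 2.69% of the gene's bin counts. With SF3a1 siRNA without LPS they had 56, 80 and 45 counts, which is 8.33, 12.97 and 11.1%. With LPS, control siRNA had 3 and 4 counts (0.621 and 2.08%), and SF3a1 siRNA had 86, 67 and 138 counts (15.8, 11.1 and 12.45%). All 6 libraries with SF3a1 siRNA stood above all 5 with control siRNA. The calls are not firm: limma's diffSplice gave adjusted p = 0.306 without LPS and 0.179 with LPS, and without replicate 1 of control siRNA with LPS, which leaves 1 library with 4 counts, the difference was 2.55 (adjusted p = 1.0). Without LPS, the call was lost when any library other than replicate 1 of SF3a1 siRNA was left out (adjusted p from 0.152 to 0.475). Bins 16, 17 and 18, also in the intron, held few counts. Without LPS, the control group summed to 17, 7 and 10 counts in them and the SF3a1 siRNA group to 41, 15 and 23. With LPS these sums were 2, 1 and 2 (control, 2 libraries) and 54, 43 and 46 (SF3a1 siRNA, 3 libraries). Control counts this low give no firm size of difference, and none of these bins passed the test (smallest diffSpliceDGE adjusted p = 0.741).

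Together, bins 14 to 21 held 5.03 ± 0.676% of the Adarb1 bin counts with control siRNA without LPS and 17.6 ± 2.38% with SF3a1 siRNA without LPS (n = 3 and 3). With LPS they held 2.81 ± 1.92% (n = 2) and 21.7 ± 2.47% (n = 3). These bins were put together after their values were seen, so no test is given. The share of reads that HTSeq assigned to no annotated exon was 18.2, 19.6 and 17.8% with control siRNA and 27.2, 21.6 and 20.8% with SF3a1 siRNA in replicates 1 to 3 without LPS, which do not overlap, and replicate 1 of SF3a1 siRNA stood apart from the others. With LPS it was 19.8, 19.3 and 17.8% with control siRNA and 19.9, 18.2 and 21.4% with SF3a1 siRNA, which overlap. The part of this in the Adarb1 intron counts was not tested. The gene count of Adarb1 includes the reads in bins 14 to 21, which are annotated as exon. Counted over all other bins, Adarb1 was at 24.6 ± 4.67 CPM with control siRNA and 24.4 ± 3.39 CPM with SF3a1 siRNA without LPS. With LPS it was at 12.53 and 14.6 CPM with control siRNA and at 12.44, 28.6 and 43.0 CPM with SF3a1 siRNA, so that replicate 1 of SF3a1 siRNA stood below both control libraries. The log2 difference with LPS was then 1.05 (SE 0.40, adjusted p = 0.0793) over 11 libraries, against 1.34 (adjusted p = 0.0278) with all bins.

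**Figure D4:**
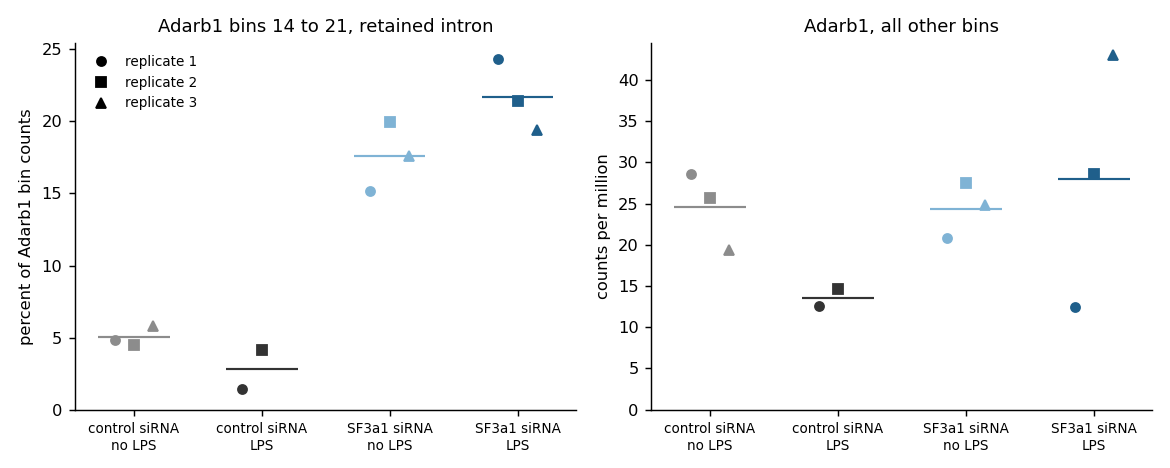
Share of Adarb1 bin counts in bins 14 to 21, which lie in 1 intron (left), and CPM over all other Adarb1 bins (right), in the 11 libraries with exon counts; symbols mark replicates and horizontal lines group means. The share runs from 1.45 to 5.79% under control siRNA and from 15.2 to 24.3% under SF3a1 siRNA, whereas outside the intron SF3a1 and control siRNA overlap at either LPS setting.

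Among the listed deaminases and their cofactors besides Adar and Adarb1, none was called with LPS under SF3a1 siRNA (edgeR). For Adar and Adarb1 this comparison carries no test. Of 15 listed genes, 14 were in the table and 9 passed the filter on low counts. Besides Adar and Adarb1, 7 were tested and none was called, where 6.6% of all genes were called higher and 4.06% lower. The median of the 9 was 0.01, against 0.01 over all tested genes. With a replicate block 1 of the 7 was called lower. With LPS under control siRNA, 2 of the 7 tested besides Adar and Adarb1 had an unadjusted edgeR p under 0.05. Of these, Apobec3 rose by 0.89 (SE 0.13, edgeR adjusted p = 0.000282), where 32.1% of all genes were called. Adarb2, the brain-expressed relative, had 0 to 2 counts per library. Apobec1, which deaminates cytidine in RNA, was at 488 ± 14.2 CPM without LPS and 375 ± 57.2 CPM with LPS under SF3a1 siRNA (log2 difference -0.38, adjusted p = 0.195). With LPS, Apobec3, which deaminates cytidine in viral DNA, was lower with SF3a1 siRNA than with control siRNA by 0.87 (SE 0.13, edgeR adjusted p = 0.000432). Adar aside, that comparison called 1 higher, Adarb1, and 1 lower, Apobec3. Of all genes 18.4% were called higher and 20.4% lower, so the counts are near the share of all genes. Under a replicate block 5 were higher. When 1 library was left out, 1 to 3 were higher (3 without replicate 2 of SF3a1 siRNA with LPS). Without LPS only Adat2, which makes inosine in tRNA, was called (0.66 higher with SF3a1 siRNA, adjusted p = 0.07), where 13.7% of all genes were called higher and 20.1% lower. With the block 2 genes were called, and without replicate 2 or replicate 3 of SF3a1 siRNA without LPS 0 were.

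Most sensors and effectors of double-stranded RNA rose with LPS under SF3a1 siRNA. All 19 listed genes were tested, 14 rose and 0 fell, against 6.6% and 4.06% of all tested genes, and the list median was 2.05, against 0.01 over all. Ifih1, which encodes MDA5, rose by 4.37 (SE 0.41, adjusted p = 1.8e-05), from 6.1 to 126 CPM. Ddx58, which encodes RIG-I, rose by 3.50 (SE 0.31). Eif2ak2, the kinase PKR that halts translation, rose by 1.75 (SE 0.21), beside 1.68 for Adar. Zbp1, a sensor of Z-form RNA and, like p150, a carrier of a Z-binding domain, rose by 5.96 (SE 0.61). Oasl1 rose by 5.09 (SE 0.24) to 1419 CPM, the highest level of the list. The value for Mavs (0.16), the adaptor of MDA5 and RIG-I, did not pass the test (adjusted p = 0.761).

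With LPS, SF3a1 siRNA lowered 15 of these 19 genes and raised 0, where 20.4% of all tested genes were called lower and 18.4% higher (list median -1.42, against -0.04 over all). Ifih1 was lower by 2.07 (SE 0.36, edgeR adjusted p = 0.000946), Ddx58 by 1.94 (SE 0.29) and Eif2ak2 by 1.24 (SE 0.21), beside 0.57 for Adar. Oas2 and Trim25, whose product modifies RIG-I, differed by 0.11 and 0.15 (adjusted p = 0.787 and 0.627). Without LPS 3 rose, Tlr3, Oas2 and Trim25, and 3 fell, which is near the 13.7% and 20.1% of all genes. Under a replicate block 4 rose and 6 fell, and when 1 library was left out 2 to 3 rose and 0 to 4 fell (0 without replicate 3 of control siRNA without LPS).

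**Figure D5:**
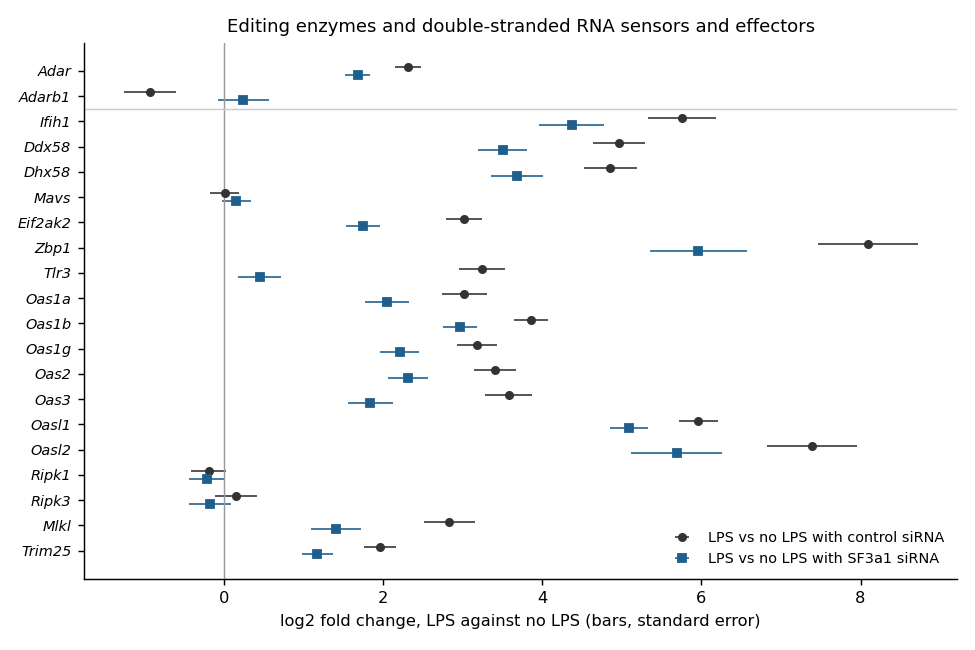
Log2 fold change with LPS against without (edgeR, bars show 1 standard error) of Adar, Adarb1 and the listed double-stranded RNA sensors and effectors, without 1 that is not reported here, for control siRNA (circles) and SF3a1 siRNA (squares). Adar lies at 2.32 and 1.68, and Ifih1 at 5.76 and 4.37.

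Most listed genes of the interferon pathway and its targets rose with LPS. Of 23 listed genes, 18 rose and 0 fell with LPS under SF3a1 siRNA, against 6.6% and 4.06% of all tested genes, with a list median of 3.39 against 0.01 over all. Irf9, which encodes a factor that binds the interferon-response element, rose by 2.19 (SE 0.16), and the target Isg15 rose by 7.03 (SE 0.29, adjusted p = 5.05e-08). Ifnb1, which encodes interferon beta, had 0 counts in each of the 3 libraries given SF3a1 siRNA alone, and LPS brought it to 21, 83 and 76 counts. With LPS, 19 of the 23 were lower with SF3a1 siRNA than with control siRNA and 1, Jak1, was higher, against 20.4% and 18.4% of all genes (list median -2.06, against -0.04). The call on Jak1 was lost without replicate 3 of either group with LPS, with no filter on low counts and in a fit of only the 2 groups compared. Isg15 was lower by 1.57 (SE 0.22), whereas Irf9 differed by -0.18 (adjusted p = 0.403). Ifnar1, a receptor subunit, differed by 0.19 (adjusted p = 0.354). Without LPS 1 was higher and 8 lower, against 13.7% and 20.1% of all genes, and 12 were lower with no filter on low counts, 5 with DESeq2 size factors and 2 to 9 when 1 library was left out (2 without replicate 3 of SF3a1 siRNA without LPS).

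In a list drawn up for proteins that bind double-stranded RNA or act on ADAR proteins, 21 of 22 genes were tested. LPS under SF3a1 siRNA raised 1 and lowered 0 (6.6% and 4.06% of all genes, list median -0.03). The 1 raised was Nfkb1 (1.90, SE 0.15), which encodes a subunit of the transcription factor NF-kappaB and not a known ADAR partner. With a replicate block 2 rose and 2 fell. With LPS under control siRNA 1 of the 21 rose and 7 fell, where 13.8% and 18.3% of all genes were called higher and lower. When 1 library was left out of that comparison 4 to 7 fell (4 without replicate 2 of control siRNA without LPS). Without LPS, SF3a1 siRNA lowered 7 and raised 0, against 20.1% and 13.7% of all genes. It lowered 9 and raised 2 with a replicate block, lowered 4 by the DESeq2 Wald test, and lowered 1 to 5 when 1 library was left out (1 without replicate 2 of control siRNA without LPS), so this count is not firm. Ilf2, whose product is part of a complex that binds double-stranded RNA, was lower by 0.86 (SE 0.16) without LPS and by 0.82 (SE 0.16) with LPS. With LPS, 2 of the 21 were higher and 3 lower with SF3a1 siRNA, against 18.4% and 20.4% of all genes. Over the alternatives 1 to 3 were higher and 1 to 4 lower (1 higher and 2 lower without replicate 2 of control siRNA with LPS, and 2 higher and 1 lower without replicate 2 of SF3a1 siRNA with LPS). Prkra, an activator of PKR, was higher by 1.07 (SE 0.20) with LPS. Dicer1 differed by -0.36 without LPS (adjusted p = 0.168).

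Transcripts known to be recoded by ADAR enzymes were not called with LPS under SF3a1 siRNA: of 15 listed, 13 were tested and 0 passed (edgeR), where 10.7% of all genes were called, 6.6% higher and 4.06% lower, so the count is near that share, with 2 called with a replicate block and 1 with no filter on low counts. DESeq2 called 0, and 1 of the 13, Blcap, had an unadjusted p under 0.05. With LPS under control siRNA 3 of the 13 rose and 0 fell, where 13.8% and 18.3% of all genes were called higher and lower. A replicate block gave 5 higher and 1 lower there. Gria2, the best known ADAR2 substrate in brain, had 1 count in all 12 libraries. Without LPS, SF3a1 siRNA raised 5 and lowered 3 of the 13, against 13.7% and 20.1% of all genes. When 1 library was left out it raised 4 to 5 and lowered 1 to 2, with 1 lowered without replicate 1 or 2 of control siRNA or replicate 2 of SF3a1 siRNA. Azin1, which is recoded by ADAR1, was lower by 1.04 (SE 0.13, adjusted p = 0.000159), and Son was higher by 0.63 (SE 0.19). With LPS, SF3a1 siRNA raised 2 of the 13 and lowered 2, where 18.4% and 20.4% of all genes were called higher and lower. Leaving out 1 library gave 0 to 3 raised and 2 to 3 lowered (0 raised without replicate 3 of SF3a1 siRNA with LPS). Counts give the amount of these transcripts and not the share that is edited.

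The genes whose log2 CPM followed Adar most closely over the 12 libraries, among 9304 genes averaging 10 CPM or more, were Apol9a, Parp14, Rbfox1, Nos2 and Ifi202b (Pearson r from 0.988 to 0.992). For Adarb1, among 13229 genes averaging 1 CPM or more, they were Zfp60, Jade3, Fnbp1, Mtmr12 and Stard10 (r from 0.886 to 0.911). The 12 libraries fall into 4 groups, so these values describe shared group patterns. The 10 bins with the smallest adjusted p for LPS under SF3a1 siRNA lay in Daxx, Dglucy, the joined gene Plec and Parp10, and a joined gene that holds Il4i1, led by bin 9 of Daxx (5.59, diffSpliceDGE adjusted p = 5.58e-16), and none was an Adar or Adarb1 bin.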

How the data were processed

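Polyadenylated RNA of 12 libraries of RAW264.7 cells was sequenced from one end, and groups follow the sample labels. Per the submitters' notes and the study's methods, the authors mapped reads of at least 30 nt to mm10 with GSNAP and kept unique matches. The deposited counts are whole reads per gene from HTSeq and per exon bin from DEXSeq's script, without normalization, and replicate 1 joins 2 runs. Whether counting used the strand is not given in the sources used here. Summary counts were kept out of library sizes: 17.755 to 27.198% of reads were on no annotated exon and 0.431 to 0.53% were ambiguous.

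Genes were fitted with edgeR 4.0.16 (quasi-likelihood, TMM, filterByExpr, all 12 libraries) and bins with diffSpliceDGE (11 libraries, genes with at least 2 bins), at a Benjamini-Hochberg rate of 0.1, in R 4.3.3 with limma 3.58.1 and DESeq2 1.42.0, and steps were tested on simulated data. Python (3.11.15), numpy (2.4.6), scipy (1.17.1) and pandas (2.3.3) gave the rest. Deviations from the group means correlated above 0.1 in 18 of 18 pairs of libraries with the same replicate number (0.143 to 0.60). Pairs of replicates 2 and 3 with different numbers reached 0.345, so pairing by number is clear only for replicate 1 (0.408 to 0.60). The main fits are unpaired, and the block is an alternative. Depth was 17269833 to 59095475 bin counts per library. Members, gene lists and tests were chosen with earlier results of these data known. Named are Adar, Adarb1, their bins that matter, Sf3a1, list genes, the 5 genes closest to each and the 10 bins with the smallest p. The other alternatives were size factors, no filter, other tools, 2-group fits and leaving out each library. Coordinates come from GENCODE vM21, promoter windows from RefSeq, where both genes matched. Some listed genes are counted in their lists but not reported here by name.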

Additional observations from a re-analysis of the deposited data

How the results depend on the processing

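Alternatives numbered 11 for each Adar comparison and 13 for each Adarb1 comparison. Under these, the gene-level results tested between siRNAs kept their side of the threshold, and those called kept their direction. The Adar log2 difference with LPS under SF3a1 siRNA ranged from 1.59 to 1.83, and that of SF3a1 against control siRNA with LPS from -0.66 to -0.43. The Adarb1 difference with LPS ranged from 0.93 to 1.69. With a replicate block, genes called for LPS under SF3a1 siRNA went from 1598 to 3115, and bins called went from 123 to 285 (LPS, control siRNA), 39 to 105 (LPS, SF3a1 siRNA), 961 to 2113 (SF3a1 siRNA without LPS) and 756 to 1793 (with LPS). Of the comparisons tested between siRNAs, the block changed no call on Adar, Adarb1 or bin 15. The DEXSeq model called 219, 80, 1732 and 1337 bins in the same order, and limma's diffSplice 21 for LPS under SF3a1 siRNA. Leaving out 1 library gave 3985 to 4583 (LPS, control siRNA), 1050 to 1509 (LPS, SF3a1 siRNA), 3881 to 4810 (SF3a1 siRNA without LPS) and 4744 to 5993 (with LPS) genes, and 49 to 113, 26 to 37, 527 to 740 and 101 to 887 bins. The lowest of these came without replicate 1 of SF3a1 siRNA without LPS for genes under LPS with SF3a1 siRNA (1050), and without replicate 1 of control siRNA with LPS for bins under LPS with control siRNA (49) and under SF3a1 siRNA with LPS (101). Adarb1 bin 15 without LPS lost its call when any library but replicate 1 of SF3a1 siRNA was left out (adjusted p 0.152 to 0.475), and with LPS only without replicate 1 of control siRNA with LPS.

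The ratio of the bin 3 share between groups depended on its base. With LPS against without, it was 1.22 of the whole gene, 2.33 of bins 1 to 3 and 2.02 per base under control siRNA, and 1.29, 2.08 and 1.80 under SF3a1 siRNA. For SF3a1 against control siRNA with LPS, the ratio of 1.21 turned to 0.865 of bins 1 to 3 and 0.886 per base, since bin 1 held more of the gene with SF3a1 siRNA. Leaving out 1 library gave whole-gene ratios of 0.9997 to 1.79 (LPS, control siRNA), 1.19 to 1.46 (LPS, SF3a1 siRNA), 0.936 to 1.68 (SF3a1 siRNA without LPS) and 1.13 to 1.30 (with LPS). Without replicate 1 of control siRNA without LPS, the difference in usage of bin 3 with LPS under control siRNA went from 0.27 to -0.05 (log2). That replicate had the lowest bin 3 share of its group, 0.278% of Adar bin counts against 0.801% and 0.385%. The 2 fits of Adarb1 on its bins were added after the data were seen. The start shares rest on 42 to 224 first-exon counts per library.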
